A study of Mus musculus with 31 samples.

Results

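Notch signalling was described here through a list of 10 of its genes, found by their Ensembl identifiers in both deposited tables. The members were the receptors Notch1, Notch2 and Notch3, the ligands Dll1, Dll3 and Jag1, the receptor-modifying enzyme Lfng, and the effectors Hes1, Hes5 and Hey1. All 10 were listed among the 34865 genes of the bulk RNA-seq table and among the 55487 of the Smart-seq2 table.

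The bulk libraries came from wild-type mouse embryos at E10.5 (E for embryonic day), with 3 libraries of dorsal diencephalon and 3 of ventral diencephalon. The diencephalon is the part of the forebrain that forms the thalamus and hypothalamus. Single-cell libraries by Smart-seq2, which covers transcripts over their full length, were made at E11.5 on medial cortex from Emx1-CreERT2::MADM-11::Axin2LacZ/+ breeding, with 13 libraries labelled Emx1-cre(+/-)::MDMD::Axin2(-/-) and 12 labelled Emx1-cre(+/-)::MDMD::Axin2(+/+). Both of these groups therefore carried the Cre driver and the MADM (mosaic analysis with double markers) chromosomes, which recombine on chromosome 11 only in cells where Cre is active. Emx1 is a gene of the dorsal telencephalon, so Cre activity is limited to cells of that lineage. The labels named no animal for any library, so the Smart-seq2 libraries of a genotype count as 1 sample and were compared without a test. The series title concerns Axin2, a feedback inhibitor of Wnt signalling, in stem cells of the developing brain.

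Notch is a receptor that is cut when a ligand on a neighbouring cell pulls on it. The freed intracellular part enters the nucleus, binds the DNA-binding protein Rbpj and switches on Hes and Hey genes, whose products are transcriptional repressors. In the embryonic neural tube the pathway is known for lateral inhibition: cells that start to become neurons make delta-like ligands under proneural factors, and their neighbours stay progenitors. Fringe enzymes such as Lfng add sugars to Notch and change which ligands it answers to.

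The Rbpj complex recognises a short DNA motif, and the promoters of the members were searched for it to show where the pathway's own letters lie in these genes. RefSeq promoter windows (build GRCm38.p6, the 250 bases before each annotated start site) matched 8 of the 10 members with 9 windows, 2 of them for Dll1. Hes1 and Hey1 had no entry. The letters GTGGGAA, or TTCCCAC on the other strand, occurred in the windows of Hes5 and Lfng and in none of the other 7 windows. Over all 32851 windows of this length, 5.42% held the motif and 0.161% held it 2 or more times. The Hes5 window (chr4:154960673-154960922, plus strand) held it 2 times, with first bases 226 and 83 bases before the start site, and the Lfng window (chr5:140607091-140607340, plus strand) held it 1 time, 109 bases before. Capitals mark the motif in each sequence, 5′ to 3′.
Hes5: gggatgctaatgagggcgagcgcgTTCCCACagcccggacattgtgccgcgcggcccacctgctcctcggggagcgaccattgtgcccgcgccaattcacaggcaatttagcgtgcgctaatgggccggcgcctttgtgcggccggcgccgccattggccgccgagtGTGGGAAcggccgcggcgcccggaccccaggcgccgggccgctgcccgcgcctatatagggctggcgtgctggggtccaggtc
Lfng: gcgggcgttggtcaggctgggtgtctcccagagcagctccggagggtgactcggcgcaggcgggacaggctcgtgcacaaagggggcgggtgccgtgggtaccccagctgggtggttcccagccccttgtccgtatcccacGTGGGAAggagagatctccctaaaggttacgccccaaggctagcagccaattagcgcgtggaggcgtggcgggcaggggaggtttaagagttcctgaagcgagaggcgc
The Lfng match shared bases with an E-box (CANNTG), the motif of basic helix-loop-helix factors, which 66.2% of all windows held. N-boxes (CACNAG, or CTNGTG on the other strand), recognised by Hes proteins, occurred in the windows of Notch1, Notch2, Notch3 and Lfng and in 36.7% of all windows. A match is a description of the letters and not evidence of binding.

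The bulk libraries held 17604411 to 20838226 counts each. Dorsal libraries carried telencephalic genes as well as thalamic ones: 6 of 6 telencephalic and 8 of 8 thalamic and pretectal markers were higher in dorsal (adjusted p under 0.05, edgeR quasi-likelihood test), and 9 of 9 hypothalamic markers were higher in ventral. All 10 cell-cycle genes examined were higher in dorsal, with a summed level of 1056 to 1358 CPM (counts per 1000000 counts) in the dorsal libraries and 293 to 413 in the ventral ones. Among 10 neuron markers dorsal exceeded ventral for 2 and ventral exceeded dorsal for 4, and among 8 progenitor markers for 3 and 2. Ventral libraries also carried intestinal and pancreatic genes (14 of 14 higher, summed level 2169 to 8443 CPM against 8.70 to 9.28 in dorsal). Macrophage markers were higher in ventral for 3 of 4 tested (summed level 10.8 to 52.2 CPM against 1.83 to 3.28), as were 2 of 8 mural and mesenchymal markers (35.0 to 89.7 CPM against 22.5 to 29.6). Of 6 red-blood-cell markers 2 were higher in dorsal, and of 4 endothelial markers none passed in edgeR, DESeq2 or limma or at an unadjusted p under 0.05. The part of these differences in the results on Notch genes was not tested, and in bulk tissue fewer cells of a type and less RNA per cell cannot be told apart.

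Of the 10 members 5 were higher in dorsal diencephalon, at least 1 from each role: the receptor Notch1, the ligands Dll1 and Dll3, the modifier Lfng and the effector Hey1. The other 5 did not pass and no member was higher in ventral (edgeR quasi-likelihood test, Benjamini-Hochberg adjusted p under 0.05 over 14701 genes, at an unadjusted p under 0.05 and by DESeq2 and limma also 0 in ventral). Of all genes tested 7.14% were called higher in dorsal and 9.54% higher in ventral. The median log2 fold change was 0.97 over the members and 0.01 over all genes. The count moved with single libraries: it was 3 without dorsal library 1 and 8 without ventral library 3. Libraries 1 and 2 of each region were the most alike pair, and when they were summed as 1 library the count was 1, Hey1 (adjusted p 0.0311). The number of all genes called higher in dorsal moved too, from 1050 of 14701 with all libraries. It was 498 of 14804 without dorsal library 1, 1695 of 14685 without ventral library 3 and 282 of 14738 with libraries 1 and 2 summed.

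**Figure D1:**
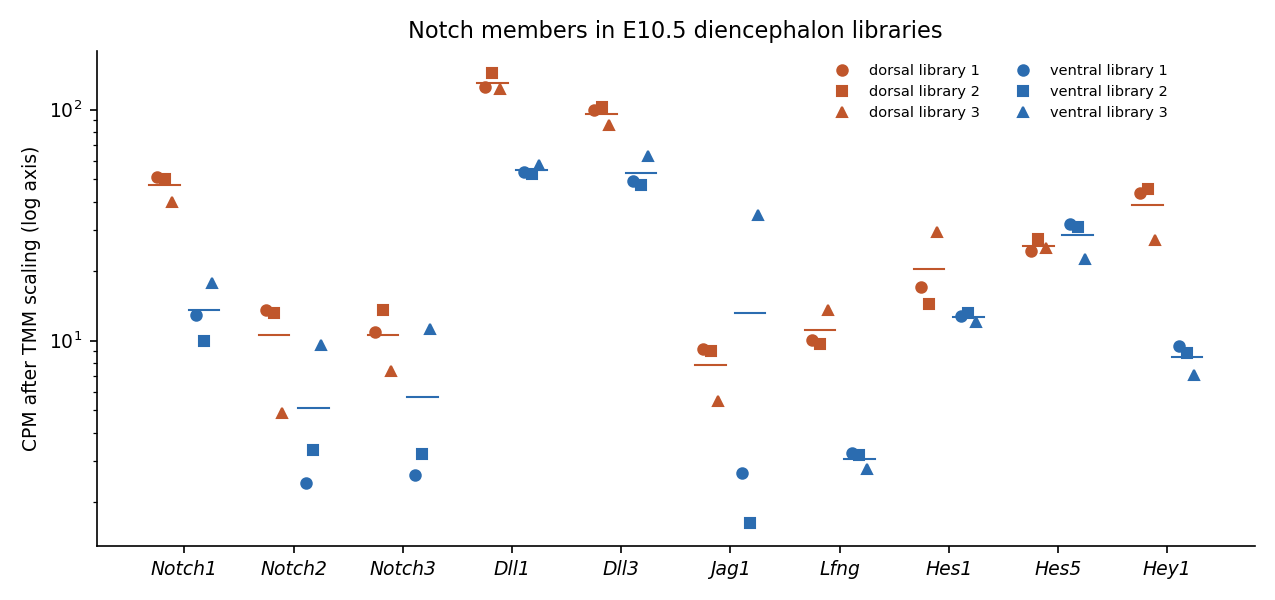
CPM (log axis) of the 10 Notch members in each of the 3 dorsal and 3 ventral diencephalon libraries at E10.5, one point per library. Notch1, Dll1, Dll3, Lfng, Hes1 and Hey1 have every dorsal point above every ventral point, and ventral library 3 stands high for Notch2, Notch3 and Jag1.

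Notch1, the main receptor of neural progenitors (ENSMUSG00000026923, chromosome 2, 26457903 to 26516663, minus strand), was at 51.2, 50.4 and 39.8 CPM in dorsal libraries 1, 2 and 3 and at 12.97, 9.94 and 17.7 CPM in the ventral ones. Every dorsal library lay well above every ventral one. Means were 47.1 ± 6.34 and 13.5 ± 3.91 CPM (SD, n = 3 each), a 3.48-fold difference with a log2 fold change of 1.80, SE (standard error) 0.27 and adjusted p 0.00327 (edgeR). Notch1 was called in each fit that left out 1 library but not when libraries 1 and 2 were summed (adjusted p 0.0558).

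Notch2, a second receptor (ENSMUSG00000027878, chromosome 3, 98013527 to 98150361, plus strand), was at 13.6, 13.2 and 4.87 CPM in dorsal and 2.42, 3.35 and 9.57 CPM in ventral libraries. The groups overlapped: dorsal library 3 was low and ventral library 3 high. Its log2 fold change was 1.04 with a 95% interval of -0.40 to 2.49 (adjusted p 0.307, edgeR). Notch3, a receptor also made by mural cells of vessels (ENSMUSG00000038146, chromosome 17, 32120820 to 32166852, minus strand), was at 10.9, 13.6 and 7.36 CPM in dorsal and 2.61, 3.24 and 11.2 CPM in ventral libraries. Ventral library 3 again fell inside the dorsal range, and the log2 fold change was 0.90 with an interval of -0.49 to 2.28 (adjusted p 0.358, edgeR).

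Dll1, the delta ligand of cells entering neuronal differentiation (ENSMUSG00000014773, chromosome 17, 15367354 to 15376872, minus strand), was at 125, 144 and 122 CPM in dorsal and 53.7, 52.9 and 57.8 CPM in ventral libraries. The regions were far apart relative to their spread, at 131 ± 11.6 and 54.8 ± 2.62 CPM (SD, n = 3 each). Dorsal was 2.38-fold higher, with a log2 fold change of 1.25, SE 0.16 and adjusted p 0.00158 (edgeR). With libraries 1 and 2 summed the adjusted p was 0.0626, the one alternative in which the call was lost.

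Dll3, a divergent delta protein that acts within the cell that makes it (ENSMUSG00000003436, chromosome 7, 28293553 to 28302238, minus strand), was at 100.02, 103 and 85.4 CPM in dorsal and 49.2, 47.2 and 62.9 CPM in ventral libraries. The groups did not overlap, and the gap was narrowest between dorsal and ventral library 3. Means were 96.0 ± 9.24 and 53.1 ± 8.58 CPM (SD, n = 3 each), 1.81-fold higher in dorsal, with a log2 fold change of 0.85, SE 0.18 and adjusted p 0.0165 (edgeR). The call was lost without dorsal library 1, dorsal library 2, ventral library 1 or ventral library 2 (adjusted p 0.0779 to 0.0851). It was also lost with libraries 1 and 2 summed (0.307), the highest over all alternatives.

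Jag1, a ligand of the serrate type used in neural, vascular and other tissues (ENSMUSG00000027276, chromosome 2, 137081456 to 137116644, minus strand), was at 9.17, 8.99 and 5.49 CPM in dorsal and 2.66, 1.62 and 35.1 CPM in ventral libraries. A single library, ventral 3, put the ventral mean above the dorsal one. The log2 fold change of -0.73 had a 95% interval of -3.09 to 1.63 (adjusted p 0.680, edgeR), and its direction turned without that library (1.84, adjusted p 0.0176, in a range of 0.0176 to 0.838 over the alternatives).

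Ventral library 3 held 16.4 times the mean Jag1 level of ventral libraries 1 and 2, and 0.0748% of tested genes had a ratio as high or higher. The same ratio was 3.84 for Notch3 (1.66% of genes at or above) and 3.32 for Notch2 (2.65%). Without this library Notch2 and Notch3 were called higher in dorsal too, with log2 fold changes of 1.83 (adjusted p 0.0376, range over the alternatives 0.0376 to 0.815) and 1.82 (adjusted p 0.0107, range 0.0107 to 0.836). Jag1, Notch2 and Notch3 are used in vessels as well as in neural tissue, so vascular and mesenchymal markers stand beside these values. The summed level of 10 mural and mesenchymal markers was 35.0, 54.4 and 89.7 CPM in ventral libraries 1, 2 and 3. Acta2 made up 7.69, 12.5 and 41.5 CPM of it, and the other markers together were also highest in ventral library 3. The summed level of 8 endothelial markers was 8.98, 11.8 and 6.23 CPM in ventral libraries 1, 2 and 3 and 6.53 to 11.4 CPM in dorsal libraries. The hypothalamic markers summed to 670, 633 and 1065 CPM in ventral libraries 1, 2 and 3. The part of these differences in the receptor and Jag1 values was not tested.

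Lfng, the lunatic fringe glycosyltransferase (ENSMUSG00000029570, chromosome 5, 140607320 to 140615545, plus strand), was at 10.1, 9.66 and 13.6 CPM in dorsal and 3.26, 3.19 and 2.78 CPM in ventral libraries. Every dorsal library lay well above every ventral one, as for Notch1. Means were 11.1 ± 2.16 and 3.08 ± 0.256 CPM (SD, n = 3 each), 3.61-fold higher in dorsal, with a log2 fold change of 1.85, SE 0.35 and adjusted p 0.0102 (edgeR). The call was lost without dorsal library 1 (adjusted p 0.0525) and with libraries 1 and 2 summed (0.163), the highest over all alternatives.

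The effectors divided. Hey1, a repressor kept on in progenitors (ENSMUSG00000040289, chromosome 3, 8663359 to 8667256, minus strand), was at 43.6, 45.5 and 27.3 CPM in dorsal and 9.52, 8.81 and 7.07 CPM in ventral libraries. This was the largest difference of the 10 members, 38.8 ± 10.02 against 8.47 ± 1.26 CPM (SD, n = 3 each) or 4.58-fold, with a log2 fold change of 2.20, SE 0.28 and adjusted p 0.00164 (edgeR). It passed in all 14 alternatives run, with adjusted p up to 0.0311.

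Hes1, a repressor whose level oscillates in progenitors (ENSMUSG00000022528, chromosome 16, 30064384 to 30067796, plus strand), was at 17.1, 14.5 and 29.5 CPM in dorsal and 12.8, 13.1 and 12.1 CPM in ventral libraries. The groups did not overlap, which held for 6 of the 10 members in this direction and for 19.0% of all genes, but dorsal library 3 carried most of the difference. Its log2 fold change of 0.68 had a 95% interval of -0.05 to 1.42 (adjusted p 0.190, edgeR). Hes5, the effector most closely tied to Notch activity in the neural tube (ENSMUSG00000048001, chromosome 4, 154960923 to 154962371, plus strand), was at 24.5, 27.7 and 25.1 CPM in dorsal and 32.1, 31.2 and 22.6 CPM in ventral libraries. The ranges overlapped, and the log2 fold change was -0.15 with an interval of -0.66 to 0.35 (adjusted p 0.688, edgeR), an interval whose ends lie nearer to 0 than the estimates for Notch1, Dll1, Dll3, Lfng and Hey1.

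**Figure D2:**
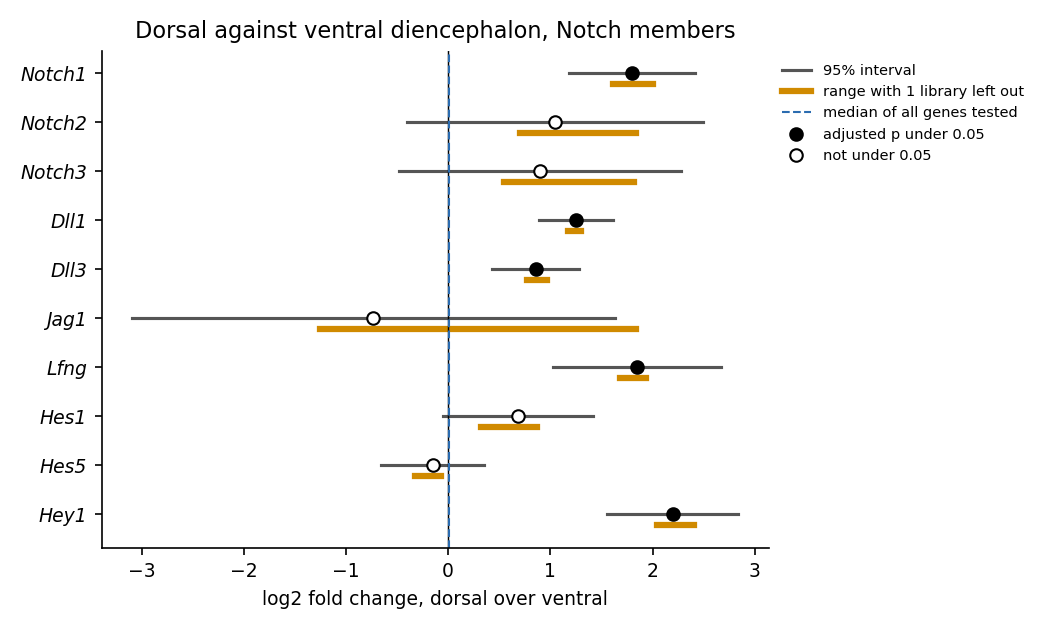
Log2 fold change, dorsal over ventral, of the 10 members with 95% intervals from the edgeR fit (filled points: adjusted p under 0.05; open points: not). Notch1, Dll1, Dll3, Lfng and Hey1 lie to the right of 0 with intervals clear of it, Hes5 lies at -0.15, and the interval of Jag1 runs from -3.09 to 1.63.

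Levels of different genes were compared per kilobase of exon. In dorsal libraries Dll3 (33.7 ± 3.24 CPM per kb, SD, n = 3) and Dll1 (30.9 ± 2.75) were highest with overlapping ranges, then came Hes5 (18.9 ± 1.25), then Hey1 (11.9) and Hes1 (9.99), which overlapped each other. Lfng followed at 4.43 and Notch1 at 3.31 CPM per kb, each apart from its neighbours, and Jag1 (1.35), Notch3 (1.31) and Notch2 (0.977) overlapped at the bottom. In ventral libraries Hes5 (20.99 ± 3.84 CPM per kb) stood first with a range that overlapped that of Dll3 (18.6 ± 3.01), and Dll1 (12.98 ± 0.622) and Hes1 (6.22 ± 0.264) were each apart from their neighbours. From Hey1 (2.59 CPM per kb) down to Notch2 (0.474) each ventral range overlapped the next. By mean, Hes5 thus stood below both delta ligands in dorsal libraries. In ventral libraries it stood above Dll1, while its range and that of Dll3 overlapped.

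The rest of the pathway was read from 66 further genes in 9 roles, of which 63 were tested. Of these 9 were higher in dorsal (14.3%, against 7.14% of all genes) and 2 higher in ventral (3.17%, against 9.54%), and the median log2 fold change was 0.31 against 0.01 over all genes. The dorsal count was 5 without dorsal library 1, dorsal library 2, ventral library 1 or ventral library 2 and 21 without ventral library 3. Over all genes it was 498 to 600 in the former fits and 1695 in the latter, against 1050 with all libraries. The ventral count was 0 without dorsal library 1, 1 without dorsal library 2, ventral library 1 or ventral library 2, and 5 without dorsal library 3. Over all genes it was 843, 900 to 920 and 1811 in these fits, against 1403 with all libraries.

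Proneural factors, which switch on Dll1 in cells leaving the progenitor state, held the largest differences. Neurog2 was at 371, 373 and 380 CPM in dorsal and 29.3, 31.2 and 43.5 CPM in ventral libraries, 10.8-fold higher (adjusted p 7.75e-05, edgeR). Neurog1 was lower in level but similar in ratio, at 8.92 ± 1.16 against 0.774 ± 0.456 CPM (SD, n = 3 each), 11.53-fold higher (adjusted p 0.00451, edgeR). Neurod1, which acts later in the same cells, was 5.13-fold higher, at 180 ± 9.53 against 35.1 ± 3.66 CPM (SD, n = 3 each; adjusted p 0.000119, edgeR). The other 3 of the 6 proneural genes did not pass in edgeR, although all 6 had an unadjusted p under 0.05 and all 6 were called higher in dorsal by both DESeq2 and limma. Neurog1 was not called with libraries 1 and 2 summed (adjusted p 0.0713).

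Among enzymes that act on the receptor, Mfng (manic fringe) was at 87.3, 97.1 and 144 CPM in dorsal and 36.9, 52.0 and 25.2 CPM in ventral libraries. It was 2.88-fold higher in dorsal, the direction of Lfng (adjusted p 0.0131, edgeR), and was not called without ventral library 1 (0.0593). It was the one of 6 fringe and glycosylation genes to pass in edgeR, with 4 at an unadjusted p under 0.05, while DESeq2 and limma each called 2. Of 9 genes of receptor cleavage, which include Adam10 and the gamma-secretase subunits, no gene passed in edgeR, limma or DESeq2, with 1 at an unadjusted p under 0.05. Of 10 genes of receptor turnover, among them Numb and Itch, no gene passed in edgeR or limma and 2 passed in DESeq2, with 2 at an unadjusted p under 0.05 in edgeR.

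On the ligand side Mib1, the ubiquitin ligase that lets delta ligands be taken up and so pull on Notch, was 1.87-fold higher in dorsal at 81.7 ± 7.26 against 43.6 ± 7.05 CPM (SD, n = 3 each; adjusted p 0.0144, edgeR), the only 1 of 6 genes of ligand endocytosis to pass. Its call was lost without dorsal library 1, dorsal library 2 or ventral library 2 (adjusted p 0.0567 to 0.0786) and with libraries 1 and 2 summed (0.193). Dner, a ligand-like surface protein of neurons, went the other way: 261, 274 and 175 CPM in dorsal against 429, 417 and 426 CPM in ventral libraries (log2 fold change -0.84, adjusted p 0.0216, edgeR). That call was lost without dorsal library 1, ventral library 1 or ventral library 2 (adjusted p 0.0513 to 0.0834) and with libraries 1 and 2 summed (0.158). The other 3 genes of this role, Dll4, Jag2 and Notch4, did not pass.

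In the nucleus, Rbpj itself was at 129 ± 19.1 and 105 ± 9.71 CPM (SD, n = 3 each; adjusted p 0.285, edgeR). Its coactivators Maml1 (2.45-fold, adjusted p 0.0457) and Ep300 (1.80-fold, adjusted p 0.0293, both edgeR) were higher in dorsal, 2 of 7 genes of this role. Maml1 was not called in 10 of 14 alternatives. Ep300 was not called without dorsal library 1, dorsal library 2, ventral library 1 or ventral library 2, with libraries 1 and 2 summed, or with a replicate block. The corepressors used by Hes and Hey proteins split: Tle1 was at 129, 125 and 125 CPM in dorsal against 48.6, 59.4 and 40.6 CPM in ventral (adjusted p 0.00244, edgeR), while Tle2 was at 13.3, 13.9 and 17.1 against 32.1, 31.1 and 57.1 CPM (adjusted p 0.0132, edgeR). The other 8 of 10 corepressors did not pass in edgeR, while DESeq2 and limma each called 2 higher in dorsal and 2 higher in ventral in the whole list. Tle2 was not called without dorsal library 1 (0.0629) or dorsal library 2 (0.0566), or with libraries 1 and 2 summed (0.0905). Fabp7, a glial lipid-binding protein known as a Notch target, was 1.74-fold higher in dorsal (adjusted p 0.0251, edgeR). Its call was lost on leaving out any 1 library other than dorsal library 3 and with libraries 1 and 2 summed. It was the only 1 to pass of 5 other effectors tested, a list in which Hes2, Hes3 and Heyl fell below the minimum.

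**Figure D3:**
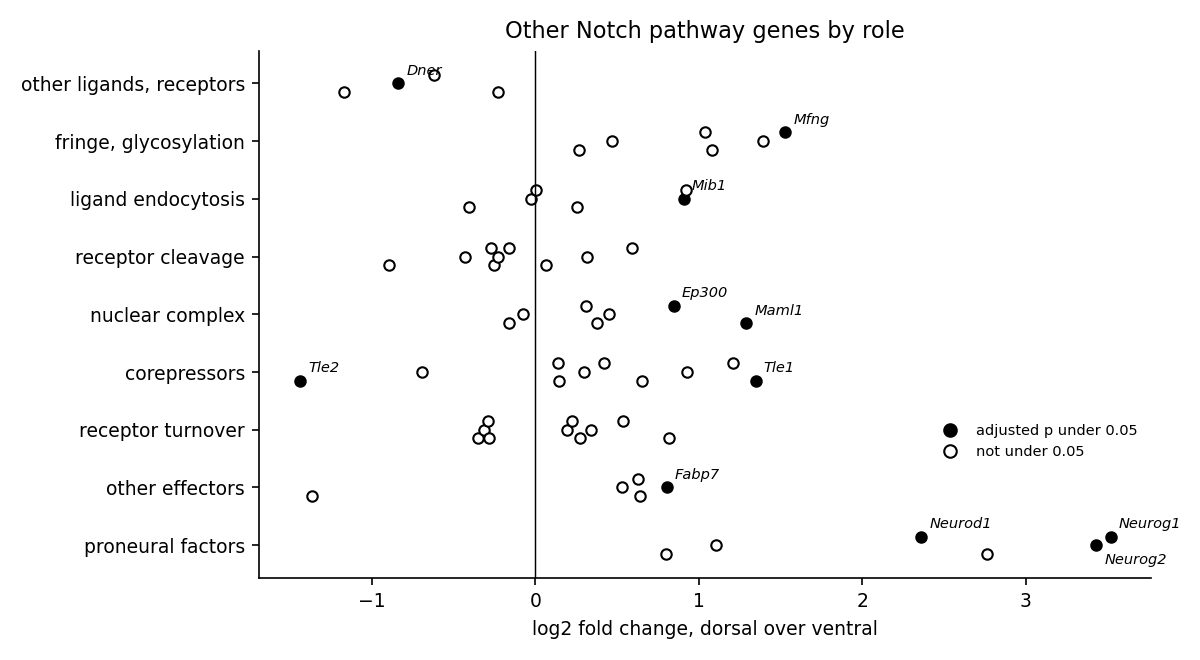
Log2 fold change, dorsal over ventral, of the 63 tested pathway genes outside the 10 members, 1 point per gene, in rows by role (filled: adjusted p under 0.05; open: not; vertical offsets only separate points). The proneural row reaches furthest to the right, at 3.43 and 3.52 for Neurog2 and Neurog1, and Dner and Tle2 are the 2 filled points left of 0.

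In the Smart-seq2 libraries of medial cortex all 10 members were above 0 in at least some libraries of both genotypes, on a TPM (transcripts per 1000000) scale that already accounts for length. Emx1, a marker of dorsal telencephalon, was at 1 TPM or more in all 25 libraries. So were the neuron markers Tubb3 and Dcx, the mesenchymal marker Col3a1 and the red-blood-cell marker Hbb-y. The cell-cycle gene Mki67 was in 24, the endothelial marker Pecam1 in 10 and the macrophage marker Ptprc in 1. Whether each library holds RNA of a single cell only was not tested. Hes5 was highest with a median of 103 TPM over the 25 libraries, followed by Hey1 (52.6), Dll1 (23.8), Hes1 (17.8), Notch2 (9.91), Notch1 (8.38), Notch3 (3.48), Jag1 (2.20), Dll3 (1.94) and Lfng (0.94). The ranges of each neighbouring pair in this order overlapped. Hes5 also varied least, between 28.3 and 196 TPM with an SD of 0.59 in log2(TPM + 1), whereas Dll3 had an SD of 1.90 and was listed at 0 in 11 libraries. Dll3, first among members in dorsal bulk tissue, thus stood ninth here, in a table that was normalized separately and comes from another tissue and age.

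Axin2 itself was at 0 to 22.4 TPM (median 3.28) in the null libraries and at 4.32 to 35.9 TPM (median 13.2) in the wild-type ones, so its ranges overlapped. Null libraries held 7863 to 11852 genes at 1 TPM or more (median 10791) and wild-type libraries 8693 to 12209 (median 11271). Over the 13680 genes whose mean reached 1 TPM, the median difference of mean log2(TPM + 1), null minus wild type, was -0.22. Summed endothelial markers had medians of 50.2 TPM in null and 111 TPM in wild-type libraries, mural and mesenchymal markers 72.6 and 136 TPM, and cell-cycle genes 1626 and 1943 TPM. Progenitor markers, of which 7 of 8 were lower in null and 3 lower by 1 or more, had summed medians of 652 and 811 TPM. Red-blood-cell markers went the other way, with 6 of 6 higher in null and summed medians of 6830 and 5274 TPM. The part of these differences in the values below was not tested. The labels give the genotype per cell and name no embryo. Whether cells of both genotypes came from the same embryos is not stated, so genotype and embryo cannot be told apart.

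No member differed by 1 or more in mean log2(TPM + 1), a size that 9.52% of the 13680 genes reached (8.14% lower and 1.39% higher in null), and the members' median difference was -0.01. With 1 sample per genotype these are descriptions of the libraries. The 3 members furthest from 0 were all lower in the null libraries: Lfng, Dll1 and Notch1.

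Lfng ran from 0 to 3.43 TPM (median 0.44) in null libraries and from 0 to 15.1 TPM (median 2.42) in wild-type ones. It reached 1 TPM in 4 of 13 null libraries (30.8%, exact 95% interval 9.09 to 61.4) and in 8 of 12 wild-type libraries (66.7%, 34.9 to 90.1), intervals that overlap and cover counting error only. The wild-type group held 5 libraries above the highest null one, and the difference of -0.90 was larger in size than that of 87.1% of genes. Across the 25 libraries Lfng correlated with the number of genes at 1 TPM or more at r = 0.47.

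Dll1 ran from 0 to 67.7 TPM (median 14.9) in null and from 7.83 to 112 TPM (median 30.6) in wild-type libraries. Most of both ranges overlapped, with 2 null libraries below all wild-type ones. Its difference was -0.82, and -0.48 without the null library listed at 0. Dll3 ran from 0 to 35.6 TPM (median 2.53) in null and 0 to 30.3 TPM (median 0.97) in wild-type libraries, listed at 0 in 5 and 6 libraries, with a difference of -0.01. Jag1 ran from 0.13 to 12.1 TPM (median 2.20) and from 0 to 10.3 TPM (median 1.87), with a difference of 0.14. Dll3 and Jag1 thus differed little between the genotypes beside their spread over libraries.

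Notch1 ran from 0.88 to 12.1 TPM (median 7.90) in null and from 3.93 to 16.6 TPM (median 9.83) in wild-type libraries. In the null group 5 libraries lay below the lowest wild-type one, and the difference was -0.77. Notch2 ran from 1.90 to 17.2 TPM (median 12.3) and from 3.64 to 26.4 TPM (median 9.20), with a difference of 0.14. Notch3 ran from 0 to 12.3 TPM (median 3.48) and from 0.68 to 15.6 TPM (median 3.54), with a difference of -0.32. The receptors did not share a direction. Across the 25 libraries Notch1 and Notch2 correlated with the number of genes at 1 TPM or more at r = 0.45 and 0.50, and Notch3 at 0.03.

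Hes5 ran from 28.3 to 196 TPM (median 124) in null and from 55.9 to 147 TPM (median 101) in wild-type libraries, with a difference of 0.09. Hes1 ran from 0.73 to 71.1 TPM (median 22.7) and from 1.63 to 76.4 TPM (median 16.0), with a difference of -0.02. Both effectors were present across almost the whole of each group. Hey1 ran from 6.82 to 82.3 TPM (median 49.5) in null and from 1.12 to 105 TPM (median 71.5) in wild-type libraries. Its median and its mean log2 difference (0.18) pointed in opposite directions: 2 wild-type libraries were at 1.12 and 1.37 TPM while 5 others were above the highest null library. Without the one or the other of those 2 libraries the Hey1 difference was -0.19 or -0.20.

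**Figure D4:**
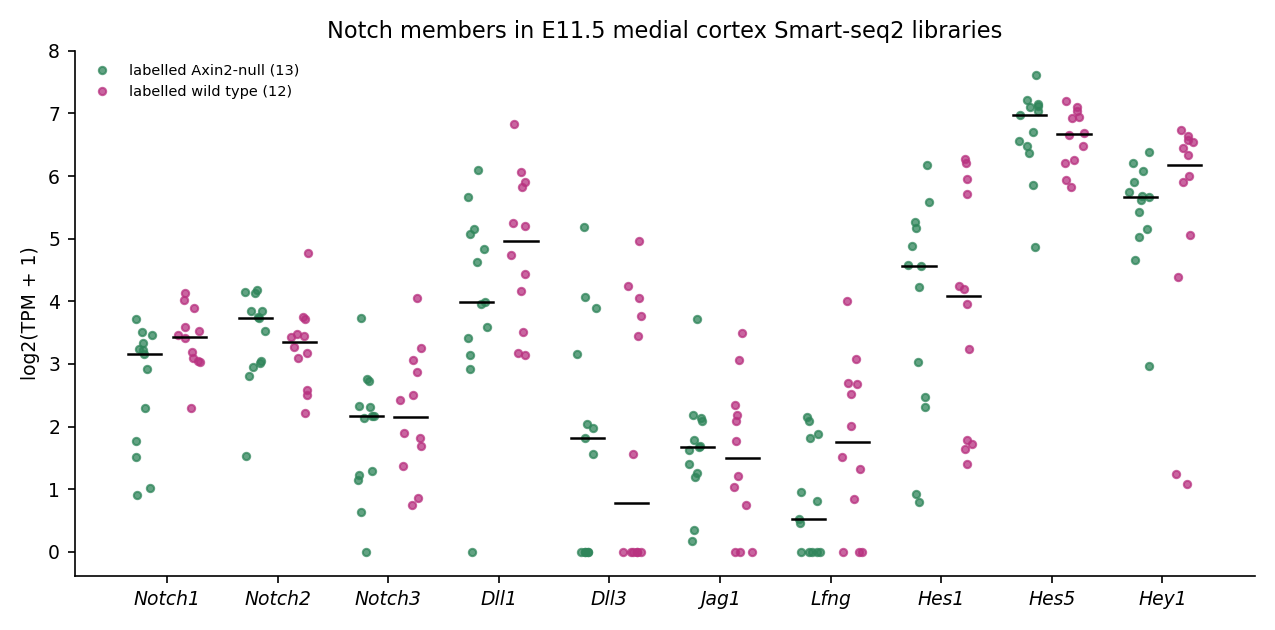
Log2(TPM + 1) of the 10 members in the 13 Axin2-null and 12 Axin2 wild-type Smart-seq2 libraries, 1 point per library, with a bar at each group's median. Points of the 2 genotypes overlap for every member, Hes5 is the tightest and highest, and the null points of Lfng end at 3.43 TPM where 5 wild-type points lie above.

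Of the other pathway genes 58 reached a mean of 1 TPM. Of these 41 were lower and 17 higher in null libraries with a median difference of -0.40, beside 9012 lower and 4668 higher of all 13680 genes, and 4 of 58 were lower by 1 or more, where 8.14% of all genes were. This share is no higher than the background. The 4 were Epn2, an endocytic adaptor (difference -1.31), Dtx4, a ubiquitin ligase of the deltex family (-1.29), Hey2, a Hes/Hey repressor also used in vessels (-1.25), and Itch, a ubiquitin ligase (-1.02). Epn2 ran from 0 to 32.4 TPM (median 6.82) in null and from 3.72 to 46.6 TPM (median 14.3) in wild-type libraries. It lies on chromosome 11, the chromosome that recombines in MADM cells, and the part of this in its difference was not tested. Hey2 was listed at 0 in 7 null and 3 wild-type libraries. Rbpj, with medians of 11.3 and 21.3 TPM, differed by -0.85, and the gamma-secretase subunit Psen2 by -0.95. Dll4, a ligand known from vessels, was the largest in the other direction at 0.80, and Notch4, a receptor of endothelium, was at -0.76. The remaining genes named by size within their role were Mfng and Gxylt1 (-0.70 each), Mib1 (-0.51), Kat2b (-0.68), Tle2 (-0.91), Kdm5a (-0.66), Fabp7 (0.40), Neurog1 (0.64) and Neurog2 (-0.41). Of these, Fabp7 and Neurog1 were higher in the null libraries and the others lower.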

How the data were processed

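The members and lists were chosen with earlier results of these data known. The authors' bulk table carries TPM in its name. Its columns have totals of 17604411 to 20838226, and 46.6% of the non-zero values are whole to within 0.0001. The deposited values were therefore taken to be estimated counts and rounded. The authors' Smart-seq2 values are TPM, since the deposited columns sum to 1000000 within rounding; their depth is unknown. STAR 2.7.0a, Trimmomatic, featureCounts, mm10 and GRCm38 are named, without a role, per the submitters' processing notes. Symbols and coordinates came from GENCODE M21 (GRCm38), which named 34651 of 34865 bulk and 55227 of 55487 Smart-seq2 identifiers. No column was left without a group. The Smart-seq2 columns name a genotype by colour letter but no numbered sample.

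Bulk counts were scaled by TMM and tested with edgeR 4.0.16 (quasi-likelihood F test, two-sided, R 4.3.3) on genes averaging 1 CPM or more over 6 libraries, with Benjamini-Hochberg adjustment and a threshold of 0.05, after a test on simulated data. Alternatives used DESeq2 1.42.0, limma 3.58.1 on log2(CPM + 1), other scalings and filters, a replicate block and left-out libraries. The labels do not state whether different embryos gave the 3 libraries of a region, so p-values measure the spread between libraries, which may be technical. The chi-square statistic per gene was lowest for libraries 1 and 2, at 8.52 in dorsal and 19.6 in ventral, and 70.0 or more for the remaining pairs, so no pair agreed within sampling noise.

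Smart-seq2 differences are of mean log2(TPM + 1), on which low genes change less than in TPM. All members are named; of the other pathway genes, those past the threshold in bulk (up to 3 per role and direction) and the 2 with the largest Smart-seq2 difference per role. Not every gene chosen this way is reported here. Bulk Rbpj and genes named as examples of a role were added after their values were seen. Shares carry exact Clopper-Pearson intervals.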

Additional observations from a re-analysis of the deposited data

How the results depend on the processing

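In bulk, the number of members higher in dorsal, 5, ranged from 3 to 8 when 1 library was left out and was 1 with libraries 1 and 2 of each region summed; none was higher in ventral in any of 14 alternatives. The number of other pathway genes higher in dorsal, 9, ranged from 5 to 21 when 1 library was left out, and was 4 with libraries 1 and 2 summed, 14 by limma and 16 by DESeq2. The number higher in ventral, 2, ranged from 0 to 5 when 1 library was left out and was 0 with libraries 1 and 2 summed. The fits with libraries left out or summed hold fewer libraries. Over all genes 498 to 1695 were higher in dorsal when 1 library was left out and 282 with libraries 1 and 2 summed, against 1050. Limma and DESeq2, which used all 6 libraries, called 1243 and 1542 of all genes higher in dorsal and 1479 and 2009 higher in ventral. The main fit called 1403 higher in ventral. The cause of the differences between tools was not tested. The Jag1 log2 fold change of -0.73 was -1.26 without ventral library 2 and -1.33 with libraries 1 and 2 summed, and turned to 1.84 without ventral library 3, 0.74 with a replicate block and 0.31 by limma, and DESeq2 gave it no adjusted p. Whether the replicate numbers pair the libraries was not settled. Deviations of same-numbered dorsal and ventral libraries correlated at 0.07, 0.10 and 0.11. Dorsal library 2 correlated best with ventral library 1 (0.15), and the remaining pairs of unlike number lay between -0.14 and 0.01. With the block 5 members and 6 other pathway genes were higher in dorsal, and the calls of Mfng (adjusted p 0.0525), Ep300 (0.0620) and Maml1 (0.0904) were lost; 924 and 1083 of all genes were higher in dorsal and ventral, against 1050 and 1403 without it. In the Smart-seq2 libraries 0 members were past a difference of 1. The number was 2 with log2(TPM + 0.1) (Dll1 -1.08, Lfng -1.55), 2 by medians (Dll3 1.04, Lfng -1.23), 1 with only libraries of at least 10000 genes at 1 TPM, an alternative chosen after seeing the data (Lfng -1.10), and 0 to 1 when 1 library was left out. Of all 13680 genes, 27.8% were past this difference with log2(TPM + 0.1) and 15.5% by medians. With only libraries of at least 10000 genes the share was 10.2%, against 9.52% in the main setting. Notch1, Dll1 and Lfng were lower in null libraries in all 30 alternatives and Notch2 and Hes5 higher in all 30. The other 5 members took both signs, from Notch3 (lower in 29) to Dll3 (lower in 17, higher in 13). Most alternatives only leave out 1 of the same 25 libraries, so a constant sign says little about the genotypes. Of all 13680 genes 9012 were lower in null, with a median difference of -0.22.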

Other observations

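Across the 25 Smart-seq2 libraries the 45 pairs of members had correlations of log2(TPM + 1) from -0.41 (Hes5 with Notch3) to 0.58 (Hes1 with Dll3), with a median of 0.17, and 2 pairs exceeded 0.5 in size. The other of these was Hes5 with Dll3 at 0.55. Dll1 and Hes5, the ligand and effector most often paired in lateral inhibition, correlated at 0.06. The libraries share 1 table, a TPM scale that fixes each library's sum, and unknown depth, so these values are descriptions without a test. Markers of several cell types occurred in the same libraries, so a correlation over libraries need not be one over cells.

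The 5 genes whose levels ran most like Hes5 over the 25 libraries were Zdhhc4 (r = 0.82), Bbip1 (0.77), Lrr1 (0.73), Dtd1 (0.73) and Trip13 (0.72), out of 10249 genes at 1 TPM or more in at least 50% of libraries. Those most like Dll1 were Rrs1 (0.76), Rcn3 (0.76), Dedd (0.74), Id3 (0.74), a helix-loop-helix protein without a DNA-binding region, and Aldh9a1 (0.73). These genes were picked as the highest of 10249, and such a pick raises the values over 25 libraries. They were not tested and cannot be weighed against the few members. Among the other members the highest were Dll3 to Hes5 (0.55) and Lfng to Dll1 (0.43).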
